A study of Caenorhabditis elegans with 16 samples.

Results

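The 10 lysozyme genes described here were lys-1, lys-2, lys-3, lys-4, lys-5, lys-7 and lys-8, whose products are lysozymes of the kind shared with amoebae, and ilys-2, ilys-3 and ilys-5, which encode invertebrate-type lysozymes. They were taken by name, as a fixed list, out of 47029 genes in the deposited table of *Caenorhabditis elegans* RNA sequencing. A further 6 genes carry a lys or ilys name and are described after the members. Lysozymes cut the peptidoglycan of bacterial cell walls. In a worm that lives on bacteria they serve both digestion and defence, and the intestine is the tissue where several of them are known to be made. Expression of lysozyme genes is known to depend on insulin signalling through DAF-16, on the p38 and ERK kinase pathways and on the DBL-1 pathway, which is a TGF-beta-like signal.

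The libraries were made from polyA RNA of whole adults on day 3 of adulthood. All 16 came from the strain SS104, which carries the temperature-sensitive allele glp-4(bn2). Worms of every group were kept at 15 °C and shifted to 24 °C as L2/L3 larvae, which makes them sterile, and ate *Escherichia coli* OP50 on Defined Medium plates. From the fourth larval stage they lived on bacterial lawns with one of 4 overlays, with 4 independent biological replicates each. The control lawns were untreated, the curcumin lawns received Curcumin Phytosome at 5 mg/mL, the sulforaphane lawns received sulforaphane at 0.625 mg/mL, and the combination lawns received both at these doses. A phytosome is a complex of a plant compound with phospholipid, and the labels name no carrier for the control. Curcumin is the yellow pigment of turmeric, and sulforaphane is an isothiocyanate from cruciferous vegetables.

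Total counts ran from 14315538 to 19964755 per library, and 14328 genes had enough counts to be tested. Marker lists of all 7 tissues examined were detected in all 4 groups, though not every marker of each list. The summed level of 8 germline markers was 262.97 to 388.68 CPM (counts scaled to a common, TMM-adjusted library size) over the 16 libraries, with none of these markers at 0 throughout a group, although the worms were sterile. No pair of libraries in a group was identical. Vitellogenin (yolk protein) genes held 19.6% ± 0.383 of control counts, 22.9% ± 0.974 of curcumin counts, 19.7% ± 0.325 of sulforaphane counts and 23.7% ± 0.755 of combination counts (SD, n = 4 each). CPM values are relative to all other RNA, so these shares stand beside every level below.

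The members lie on 4 chromosomes of assembly WBcel235, and 7 of the 10 sit in runs of adjacent family genes. On chromosome V, lys-1 (gene ID 179428, 10277904 to 10279056, plus strand) is followed by lys-2 (179429, 10280307 to 10281474, minus strand) and lys-3 (179430, 10282100 to 10283544, minus strand). Gaps of 1250 and 625 bp separate them, with 0 protein-coding genes between. On chromosome IV, ilys-3 (177033, 2464456 to 2465443, plus strand) lies 2234 bp from ilys-2 (183475, 2467678 to 2468879, plus strand). Elsewhere on chromosome IV, lys-4 (178086, 11621429 to 11623174, minus strand) lies 1077 bp from lys-5 (186491, 11624252 to 11625582, minus strand). The other 3 members stand apart from the family: lys-7 (178772, chromosome V, 3481432 to 3482600, minus strand), lys-8 (173944, chromosome II, 5586178 to 5587651, plus strand) and ilys-5 (180928, chromosome X, 6533490 to 6536840, minus strand).

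The gene models fall into distinct sizes. The coding sequences of the 3 ilys genes each span 139 codons in the Ensembl annotation, stop codon excluded. Those of lys-4 and lys-5 span 214 and 215 codons, and those of lys-1, lys-2, lys-3, lys-7 and lys-8 span 279 to 301 codons. The genes have 2 to 5 exons in the transcript with the longest coding sequence. lys-8 shares 38 bp with C17G10.13 on the opposite strand, which had 1928 counts in all against 301149 for lys-8. How reads that match several copies of the family were counted is not given in the sources used here.

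Levels of the members spanned more than 4 orders of magnitude. In FPKM, the authors' unit of reads per length and depth that allows genes to be compared, lys-7 stood at 20842 ± 1729 in the control (SD, n = 4), which made it the highest of all genes in each of the 4 control libraries. It was followed by lys-1 at 2196 FPKM, lys-8 at 1189, lys-2 at 721, ilys-5 at 270 and lys-4 at 168. The last 4 were ilys-3 at 20.7 FPKM, ilys-2 at 12.3, lys-3 at 3.76 and lys-5 at 0.425. Only ilys-3 and ilys-2 among neighbours in this order overlapped in their control libraries.

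The top 5 places (lys-7, lys-1, lys-8, lys-2 and ilys-5) held in every group, without overlap between neighbours. The lower places did not. With curcumin, ilys-3 at 42.1 FPKM stood above lys-4 at 33.2, although their libraries overlapped. With sulforaphane, ilys-3 at 2.27 FPKM stood below lys-3 at 3.31, again with overlapping libraries. In the combination, ilys-3, ilys-2 and lys-3 at 6.37, 6.30 and 4.14 FPKM overlapped one with the next.

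**Figure D1:**
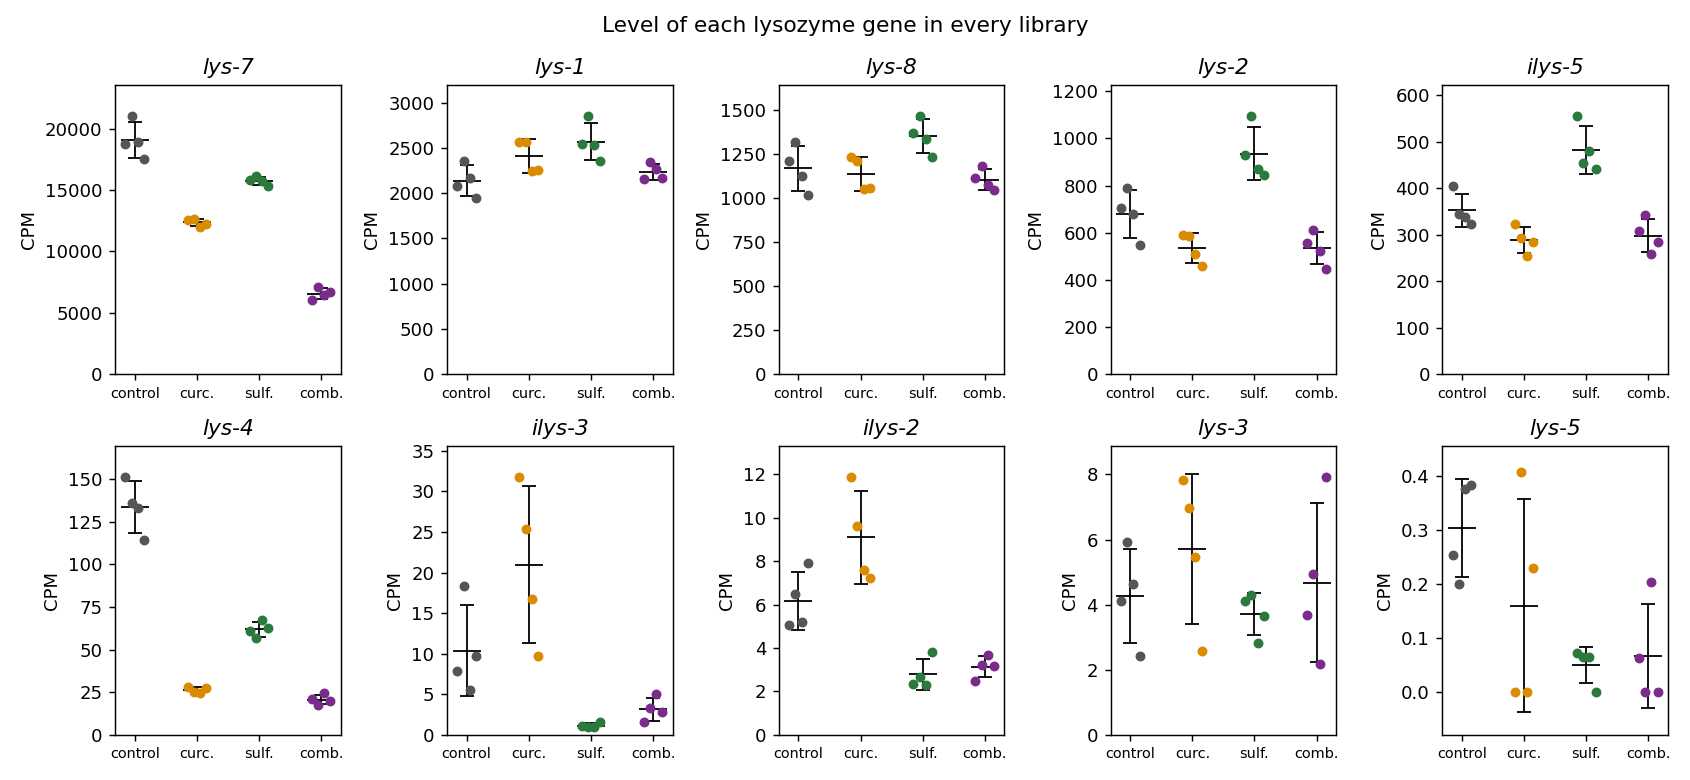
CPM of each of the 10 lysozyme genes in all 16 libraries, 1 panel a gene, each with its own vertical axis; points are libraries, and bars are the group mean ± SD (n = 4). The 4 groups do not overlap for lys-7 or lys-4; the closest pair is the lowest curcumin library (24.7 CPM) and the highest combination library (24.4 CPM) of lys-4.

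Most reads of the family came from lys-7. The 10 genes together held 2.39% ± 0.134 of all counts in control worms, 1.69% ± 0.0295 with curcumin, 2.09% ± 0.0429 with sulforaphane and 1.06% ± 0.0494 with both compounds (SD, n = 4 each). Of the reads of the 10 genes, lys-7 held 80.9% in control worms, 73.6% with curcumin, 74.5% with sulforaphane and 60.9% with both compounds. The 9 other members summed to 4492 ± 415 CPM in control worms, 4435 ± 376 with curcumin, 5409 ± 411 with sulforaphane and 4200 ± 222 with both compounds (SD, n = 4 each). With curcumin and with the combination, the sum of these 9 genes differed from the control by less than the SD of the control libraries. By FPKM, lys-7 was the highest gene of the whole table in every sulforaphane library, ranked 2 or 3 in the curcumin libraries and ranked 5 in each combination library.

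**Figure D2:**
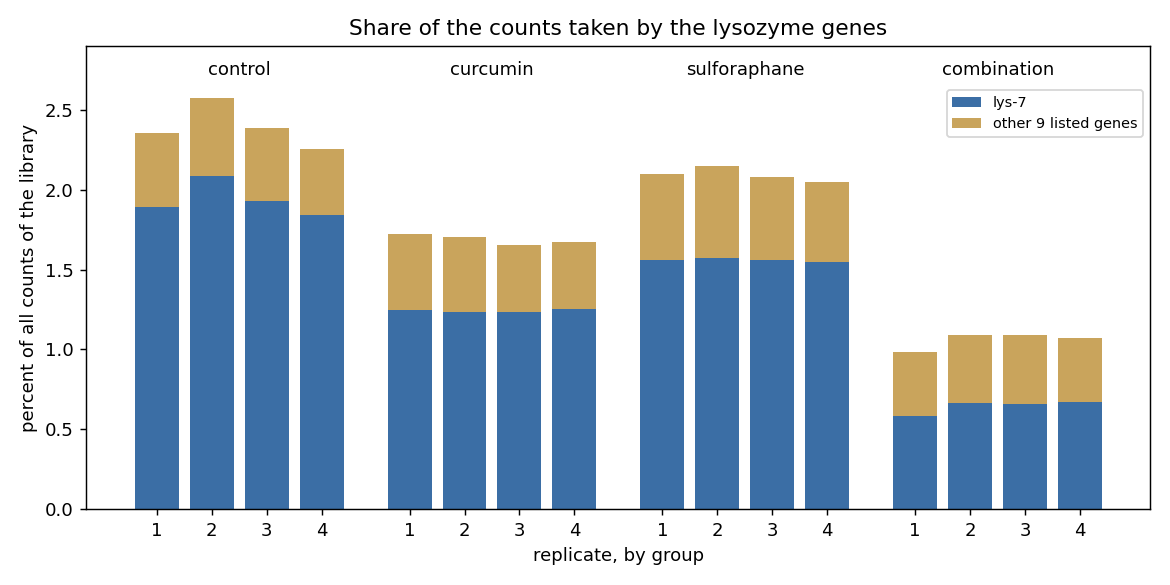
Share of all counts (percent) held by lys-7 and by the other 9 lysozyme genes in each library, stacked, with the axis from 0. The control libraries total 2.26% to 2.58%, and the combination libraries total 0.987% to 1.09%.

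Each treatment was compared with the control by edgeR's quasi-likelihood test over all 16 libraries, with Benjamini-Hochberg adjustment over the 14328 tested genes and a threshold of 0.05. Of the 10 members, 9 had enough counts for the test, and lys-5 did not. With curcumin, 6 of the 9 passed, against 14.6% of all tested genes: ilys-3 and ilys-2 rose (6.87% of all genes rose) and lys-7, lys-4, lys-2 and ilys-5 fell (7.71% of all genes fell). With sulforaphane, 7 of the 9 passed, against 6.71% of all tested genes. Here lys-1, lys-2 and ilys-5 rose, against 4.33% of all genes, and lys-7, lys-4, ilys-2 and ilys-3 fell, against 2.37%. With the combination, 5 of the 9 passed, against 23.1% of all tested genes. These 5 fell (lys-7, lys-4, lys-2, ilys-2 and ilys-3), against 11% of all genes, and 0 rose, against 12.1% of all genes. The 4 treated and 4 control libraries did not overlap in 2 of the 9 with curcumin (16.8% of all tested genes), 7 with sulforaphane (13.8%) and 4 with both compounds (22.8%).

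The 3 comparisons share the same control libraries, so their directions are not independent of each other. The median log2 change of the 9 tested members was -0.04 with curcumin, -0.20 with sulforaphane and -0.35 with both compounds, beside -0.01, -0.02 and -0.02 over all tested genes. The split of all sulforaphane calls depended on the scaling: 64.6% of them were rises under TMM scaling, and 53.4% when libraries were scaled by their totals only. Of the combination calls, 52.3% and 43.1% were rises under the same scalings. No member named here as having risen or fallen changed direction under either of the 2 other scalings.

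lys-7, whose product is known to protect worms against some bacterial pathogens and whose expression is a classical readout of DAF-16, stood at 18727, 21043, 18938 and 17551 CPM in control replicates 1 to 4. The curcumin libraries gave 12600, 12606, 11996 and 12268 CPM, and the sulforaphane libraries 15786, 16162, 15766 and 15311 CPM. The combination libraries gave 6040, 7086, 6419 and 6700 CPM. No library of any treatment reached the lowest control, and the 4 groups did not overlap: control was highest, then sulforaphane, then curcumin, then the combination.

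The change of lys-7 was -0.62 log2 with curcumin (SE 0.06, edgeR adjusted p = 5.53e-08), -0.27 with sulforaphane (SE 0.06, edgeR adjusted p = 0.0064) and -1.54 with both compounds (SE 0.06, edgeR adjusted p = 2.35e-15). The call with sulforaphane was lost without control replicate 2 (edgeR adjusted p = 0.0744) and without sulforaphane replicate 4 (edgeR adjusted p = 0.0532). It was also lost in limma on FPKM (adjusted p = 0.197 and 0.193 with pseudocounts of 1 and 0.1). The combination lay below curcumin alone (log2 difference -0.91, edgeR adjusted p = 1.71e-10), and below sulforaphane alone (log2 difference -1.26, edgeR adjusted p = 1.14e-13).

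lys-4 had the widest range among the genes of the amoeba-like type, 2.69 log2 units between its highest and lowest group mean. Its control libraries stood at 152, 136, 133 and 115 CPM, and the curcumin libraries at 28.1, 25.0, 24.7 and 27.3 CPM. The sulforaphane libraries stood at 60.9, 56.7, 67.3 and 63.0 CPM, and the combination libraries at 21.2, 17.5, 24.4 and 20.0 CPM. Each treatment was below the control with no overlap, and the combination libraries lay just below those of curcumin.

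The log2 change of lys-4 was -2.35 with curcumin (SE 0.09, edgeR adjusted p = 1.92e-15), -1.11 with sulforaphane (SE 0.09, edgeR adjusted p = 1.99e-09) and -2.69 with both compounds (SE 0.10, edgeR adjusted p = 9.38e-17). The combination was below curcumin alone (log2 difference -0.34, SE 0.10, edgeR adjusted p = 0.0292). That last call was lost without any one of 5 libraries (curcumin replicates 1 and 4 and combination replicates 1, 2 and 4), with edgeR adjusted p between 0.0523 and 0.122. The neighbour lys-5 was near the limit of detection. Its counts were 4, 3, 6 and 6 in control replicates 1 to 4, 0, 6, 0 and 4 with curcumin, 1, 1, 1 and 0 with sulforaphane, and 1, 0, 3 and 0 with both compounds. A count of 0 allows up to 3 counts, which is 0.152 to 0.212 CPM in these libraries.

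Summed over the 4 libraries and scaled by depth, lys-5 was 6.18 times as high in the control as with sulforaphane (95% exact interval 1.82 to 32.6). The ratio was 4.70 against the combination (95% exact interval 1.56 to 19.01) and 2.06 against curcumin (95% exact interval 0.910 to 4.95). These intervals cover counting error only and not the spread between replicates. When all 25386 genes with at least 1 read were tested, lys-5 passed in none of the 3 comparisons (edgeR adjusted p = 0.286, 0.227 and 0.679 in the same order).

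lys-2, which is known to be induced by infection through the p38 pathway, moved in opposite directions with the 2 compounds. The control libraries stood at 703, 792, 680 and 546 CPM, and the sulforaphane libraries at 931, 1095, 869 and 844 CPM. The curcumin libraries stood at 588, 588, 508 and 458 CPM, and the combination libraries at 555, 610, 522 and 447 CPM. Sulforaphane lay wholly above the control, while curcumin and the combination overlapped with it.

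The log2 change of lys-2 was 0.46 with sulforaphane (SE 0.11, edgeR adjusted p = 0.00749) and -0.35 with curcumin (SE 0.11, edgeR adjusted p = 0.030). It was -0.35 with the combination (SE 0.11, edgeR adjusted p = 0.0187). The curcumin call was lost without any one of control replicates 1, 2 and 3 and curcumin replicates 3 and 4 (edgeR adjusted p 0.0663 to 0.184). It was also lost in limma on FPKM (adjusted p = 0.0893 and 0.0900 with pseudocounts of 1 and 0.1). The combination call was lost without control replicate 2 (edgeR adjusted p = 0.0898) or combination replicate 4 (0.0788). In limma on FPKM it was lost as well (adjusted p = 0.0538 and 0.0543 with the same pseudocounts). The curcumin and sulforaphane levels of lys-2 differed by -0.80 log2 (edgeR adjusted p = 3.23e-06). The combination differed from curcumin by -0.01 log2 (SE 0.11, edgeR adjusted p = 0.989) and from sulforaphane by -0.81 log2 (edgeR adjusted p = 3.11e-06).

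ilys-5, an invertebrate-type gene at middling level on the X chromosome, was also highest with sulforaphane. The control libraries stood at 404, 344, 338 and 322 CPM, and the sulforaphane libraries at 555, 454, 479 and 441 CPM. The curcumin libraries stood at 323, 293, 255 and 284 CPM, and the combination libraries at 308, 342, 259 and 283 CPM. All sulforaphane libraries were above all controls, and the other 2 treatments each overlapped with the control.

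The log2 change of ilys-5 was 0.45 with sulforaphane (SE 0.09, edgeR adjusted p = 0.0018) and -0.29 with curcumin (SE 0.09, edgeR adjusted p = 0.0344). With the combination it was -0.24 (SE 0.09, edgeR adjusted p = 0.0597), which did not pass. The curcumin call was lost without any one of control replicates 1, 2 and 3 and curcumin replicates 2, 3 and 4 (edgeR adjusted p 0.0605 to 0.149). It was also lost in limma on FPKM (adjusted p = 0.0761 and 0.0764 with pseudocounts of 1 and 0.1). The combination call was gained without any one of 5 libraries (control replicate 4, curcumin replicates 1 and 4, sulforaphane replicate 1 and combination replicate 2), with edgeR adjusted p from 0.0174 to 0.0482. It was also gained when libraries were scaled by their totals only (edgeR adjusted p = 0.00883), without the filter on low counts (0.00842) and with replicate number as a block (0.00484). ilys-5 was lower with the combination than with sulforaphane alone (log2 difference -0.69, edgeR adjusted p = 2.57e-06), and lower with curcumin than with sulforaphane (log2 difference -0.74, edgeR adjusted p = 8.95e-07).

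lys-1 and lys-8 are among the most abundant members and moved little. lys-1 stood at 1945 to 2352 CPM in control worms, 2240 to 2568 with curcumin, 2357 to 2852 with sulforaphane and 2151 to 2341 with both compounds. It rose with sulforaphane by 0.27 log2 (SE 0.07, edgeR adjusted p = 0.0201), a call that was lost without control replicate 1, control replicate 4 or sulforaphane replicate 2 (edgeR adjusted p 0.0593 to 0.112). With curcumin the log2 change of lys-1 was 0.17 (SE 0.07, edgeR adjusted p = 0.118), and without control replicate 2 it was 0.24 and passed (edgeR adjusted p = 0.0316). It also passed with replicate number as a block (edgeR adjusted p = 0.0149).

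In the main analysis lys-8, which is known as a target of the DBL-1 pathway, passed against the control in none of the 3 comparisons. Its libraries stood at 1017 to 1321 CPM in control worms, 1055 to 1232 with curcumin, 1232 to 1468 with sulforaphane and 1045 to 1185 with both compounds. Its log2 change with sulforaphane was 0.21 (SE 0.08, edgeR adjusted p = 0.119), and 0.30 without control replicate 2 (edgeR adjusted p = 0.0232). That change also passed with replicate number as a block (edgeR adjusted p = 0.00393) and without the filter on low counts (0.0292). The level of lys-8 was lower with the combination than with sulforaphane (log2 difference -0.29, SE 0.08, edgeR adjusted p = 0.00861).

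ilys-3, whose product is active against bacteria in the pharynx and intestine, was the member with the widest range, 3.97 log2 units between group means. The control libraries stood at 7.84, 18.3, 5.56 and 9.76 CPM, and the curcumin libraries at 31.8, 25.4, 16.7 and 9.77 CPM. The sulforaphane libraries stood at 1.06, 0.909, 0.964 and 1.57 CPM, from only 14 to 25 reads each, and the combination libraries at 1.62, 3.29, 5.01 and 2.79 CPM. The sulforaphane and combination libraries all lay below the lowest control, while the curcumin libraries overlapped with the control.

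The log2 change of ilys-3 was -3.18 with sulforaphane (SE 0.43, edgeR adjusted p = 1.2e-05) and -1.71 with both compounds (SE 0.36, edgeR adjusted p = 8.38e-04). It was 1.02 with curcumin (SE 0.31, edgeR adjusted p = 0.0235), a call lost without any one of control replicates 1, 3 and 4 and curcumin replicates 1 and 2 (edgeR adjusted p 0.0590 to 0.142), and lost in DESeq2 (adjusted p = 0.111). That call was also lost in limma on FPKM (adjusted p = 0.0730 and 0.0881 with pseudocounts of 1 and 0.1). Curcumin and sulforaphane differed by 4.20 log2 (edgeR adjusted p = 1.64e-08). The combination was below curcumin alone (log2 difference -2.73, edgeR adjusted p = 5.38e-06). It was above sulforaphane alone by 1.47 log2 (SE 0.49, edgeR adjusted p = 0.0354), a call lost without any one of sulforaphane replicates 1, 2 and 3 and combination replicates 2 and 3 (edgeR adjusted p 0.0636 to 0.164).

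The adjacent gene ilys-2 had the same order of single treatments around the control. The control libraries stood at 5.06, 6.46, 5.18 and 7.91 CPM, and the curcumin libraries at 11.9, 9.63, 7.61 and 7.24 CPM. The sulforaphane libraries stood at 2.33, 2.66, 2.31 and 3.83 CPM, and the combination libraries at 2.50, 3.22, 3.66 and 3.15 CPM. Sulforaphane and the combination lay wholly below the control, and curcumin overlapped with it.

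The log2 change of ilys-2 was -1.14 with sulforaphane (SE 0.21, edgeR adjusted p = 6.75e-04), -0.97 with the combination (SE 0.20, edgeR adjusted p = 7.79e-04) and 0.57 with curcumin (SE 0.19, edgeR adjusted p = 0.0397). The curcumin call was lost without any one of control replicates 1, 2 and 3 and curcumin replicates 1 and 2 (edgeR adjusted p 0.0513 to 0.207). It was also lost when libraries were scaled by their totals only (edgeR adjusted p = 0.0557) and in limma on FPKM with a pseudocount of 0.1 (adjusted p = 0.0514). For ilys-2 the combination was below curcumin (log2 difference -1.54, edgeR adjusted p = 6.08e-06) and differed from sulforaphane by 0.16 log2 (edgeR adjusted p = 0.705). lys-3, the least abundant tested member by FPKM in the control, passed in no comparison of the main analysis. Its libraries ran from 2.17 to 7.93 CPM over all groups, and the largest of its log2 changes against the control was 0.42, with curcumin (SE 0.32, edgeR adjusted p = 0.475). Without the filter on low counts, lys-3 was higher with curcumin than with sulforaphane (log2 difference 0.62, edgeR adjusted p = 0.0163).

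**Figure D3:**
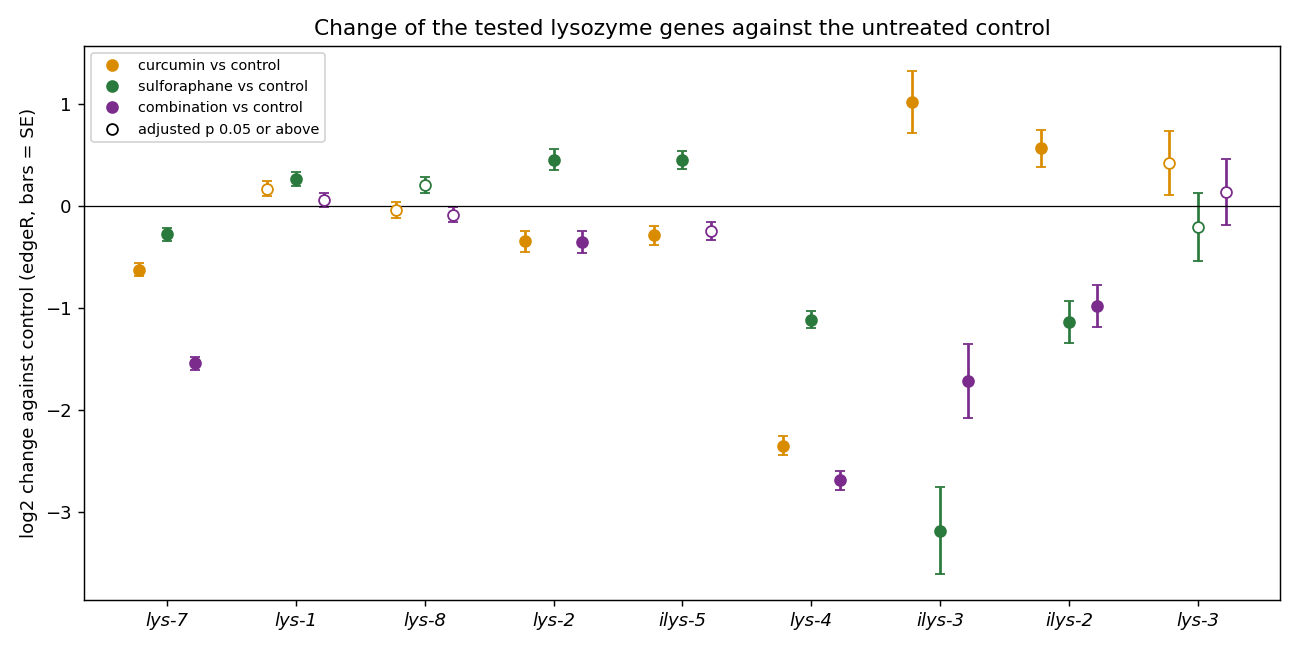
Log2 change against the control of each tested lysozyme gene with curcumin, sulforaphane and the combination (edgeR), with bars of 1 SE; filled points passed at an adjusted p under 0.05 and open points did not. With sulforaphane ilys-3 (-3.18), ilys-2 (-1.14) and lys-4 (-1.11) lie far below 0 while lys-2 (0.46) and ilys-5 (0.45) lie above it.

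Setting the treatments against each other gave the following counts. The combination differed from curcumin alone in 4 of 9 tested members, against 7.32% of all tested genes, and all 4 (lys-7, lys-4, ilys-2 and ilys-3) were lower (2.67% of all genes), with 0 higher (4.65% of all genes). It differed from sulforaphane alone in 7 of 9, against 18.8%: ilys-3 was higher (9.53% of all genes), and lys-7, lys-1, lys-8, lys-2, ilys-5 and lys-4 were lower (9.25% of all genes). Curcumin differed from sulforaphane in 7 of 9, against 18.1%: ilys-3 and ilys-2 were higher with curcumin (7.62% of all genes), and lys-7, lys-8, lys-2, ilys-5 and lys-4 were lower (10.5% of all genes). Of these calls, that of lys-1 between the combination and sulforaphane (log2 change -0.20, edgeR adjusted p = 0.0473) was lost without any one of 6 libraries (control replicate 1, sulforaphane replicates 1, 2 and 3, and combination replicates 1 and 4), with edgeR adjusted p 0.0518 to 0.193. That of lys-8 between curcumin and sulforaphane (log2 change -0.25, edgeR adjusted p = 0.0267) was lost without any one of curcumin replicates 3 and 4 and sulforaphane replicates 1, 2 and 3 (edgeR adjusted p 0.0515 to 0.106). In limma on FPKM with pseudocounts of 1 and 0.1, the lys-1 call was lost as well (adjusted p = 0.0969 and 0.0959). So was the lys-8 call (adjusted p = 0.0546 with either pseudocount).

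Whether the combination acted as the sum of its parts was asked with the interaction, which is the log2 change under both compounds minus the changes under each compound alone. Of the 9 tested members 2 passed, against 0.991% of all tested genes, and 6 had an unadjusted p under 0.05. For lys-7 the single changes summed to -0.90 and the combination gave -1.54, so that the combination was lower than the sum by a log2 difference of -0.64 (SE 0.09, edgeR adjusted p = 2.32e-04, 0.614% of all genes being lower). For lys-4 the single changes summed to -3.46 and the combination gave -2.69, a log2 difference of 0.77 (SE 0.13, edgeR adjusted p = 0.00222, 0.377% of all genes being higher). The 2 interactions thus had opposite signs: lys-7 fell further than the log2 sum and lys-4 fell less far. The lys-7 interaction kept its call without any one library (-0.74 to -0.61), and in limma on FPKM with a pseudocount of 1 it was -0.67 and did not pass (adjusted p = 0.0512).

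The other 7 tested members did not pass. Their interactions were -0.46 for lys-2 (SE 0.15, edgeR adjusted p = 0.212), -0.41 for ilys-5 (SE 0.13, edgeR adjusted p = 0.181), -0.38 for lys-1 (SE 0.10, edgeR adjusted p = 0.0811) and -0.41 for ilys-2 (SE 0.29, edgeR adjusted p = 0.766). The interactions of lys-8 and lys-3 were -0.25 (SE 0.11, edgeR adjusted p = 0.455) and -0.08 (SE 0.46, edgeR adjusted p = 0.989). That of lys-1 passed without any one of control replicate 2, curcumin replicate 4, sulforaphane replicate 4 and combination replicate 3 (edgeR adjusted p 0.0178 to 0.0475). It also passed when libraries were scaled by their totals only (0.0281) and in DESeq2 (0.0123), and without the filter on low counts those of lys-1, lys-2 and ilys-5 passed (0.00347, 1.21e-04 and 0.00151). The interaction of ilys-3 was 0.45 with an SE of 0.58 (edgeR adjusted p = 0.904), so that a departure of either sign was not resolved for it.

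**Figure D4:**
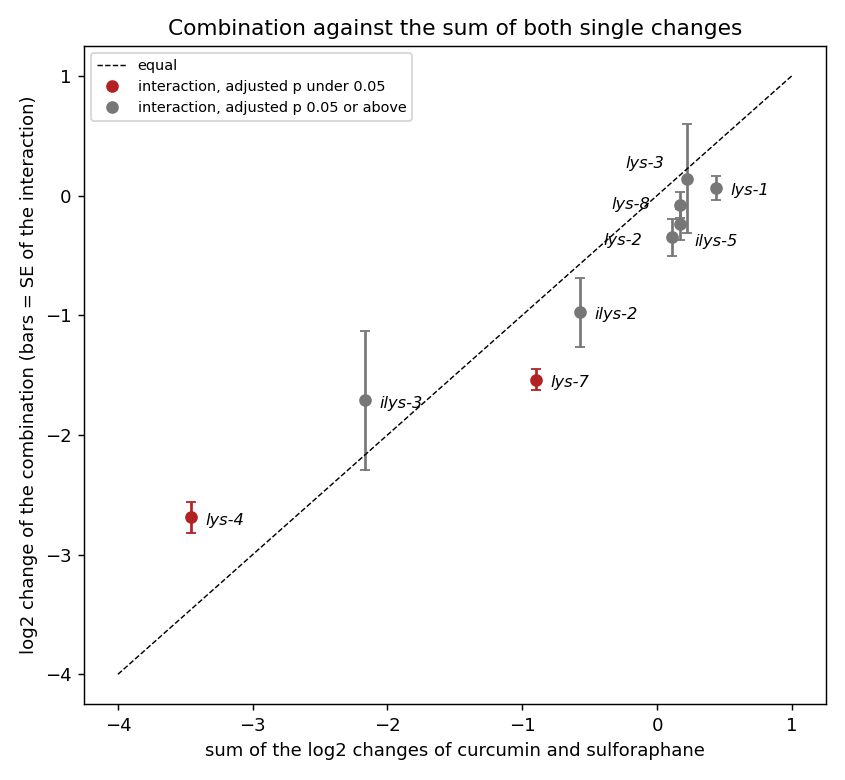
Log2 change of the combination against the control (vertical) plotted against the summed log2 changes of both single treatments (horizontal) for the 9 tested lysozyme genes; the dashed line marks equality, bars are the SE of the interaction, and red points passed at an adjusted p under 0.05. lys-7 lies below the line (-1.54 against -0.90) and lys-4 above it (-2.69 against -3.46).

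Markers of the intestine moved with curcumin. Of 9 intestinal markers 0 rose and 7 fell with curcumin (median log2 change -0.68), 3 rose and 0 fell with sulforaphane (median 0.07), and 1 rose and 8 fell with the combination (median -0.57). Their summed level was 2335 to 2802 CPM in control worms, 1234 to 1390 with curcumin, 2904 to 3200 with sulforaphane and 1382 to 1672 with both compounds, and none was at 0 throughout a group. The largest part of the sum was asp-1, an aspartyl protease gene, at 1411 ± 167 CPM in control worms and 1762 ± 86.5 with sulforaphane, and 2 of the 3 markers that rose with sulforaphane were asp-1 and act-5, an intestinal actin gene, while the mean levels of vha-6, pept-1, ifb-2 and mtl-2 were lower than in the control without passing. Members that changed in the direction of the sum were lys-7, lys-4, lys-2 and ilys-5 with curcumin, lys-1, lys-2 and ilys-5 with sulforaphane, and all 5 called members with the combination. Members that changed in the other direction were ilys-3 and ilys-2 with curcumin, and lys-7, lys-4, ilys-2 and ilys-3 with sulforaphane. In whole worms, fewer cells of a type and less RNA per cell cannot be told apart. The part of the intestinal markers in the lysozyme changes was not tested.

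Of 8 pharyngeal markers 7 were tested, and 0, 1 and 1 rose with curcumin, sulforaphane and the combination, while 0 fell. Their summed level was 182 to 261 CPM in control worms, 189 to 237 with curcumin, 188 to 236 with sulforaphane and 228 to 254 with both compounds. Among them phat-1 was at 0 in all curcumin and all combination libraries, but had only 2 counts in all in the control and 3 with sulforaphane, so that no difference was detectable at this depth. Of 3 coelomocyte markers 0 passed with any treatment, and their sums ran from 50.7 to 62.7 CPM over the 16 libraries. Of 5 body-wall muscle markers 1, 0 and 4 rose with the 3 treatments in the same order and 0 fell, of 6 neuronal markers 0, 0 and 1 rose and 0 fell, of 8 germline markers 1, 0 and 1 rose and 0 fell, and of the 3 tested of 5 hypodermal markers 1, 0 and 1 rose and 0 fell. The hypodermal markers dpy-7 and rol-6 had at most 3 counts summed over any group, and rol-6 had 0 with sulforaphane.

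Lists of genes known to act upstream of lysozyme genes are set here beside the share of all tested genes that rose or fell, which was 6.87% and 7.71% with curcumin, 4.33% and 2.37% with sulforaphane and 12.1% and 11% with both compounds. Of 8 insulin-pathway genes, 2 fell with curcumin, 1 rose with sulforaphane, and 1 rose and 4 fell with the combination. The largest of these changes was in pqm-1, a zinc-finger transcription factor that acts opposite to DAF-16. It stood at 127 ± 8.56 CPM in control worms, 76.7 ± 8.11 with curcumin, 110.0 ± 3.43 with sulforaphane and 53.3 ± 2.04 with both compounds (SD, n = 4 each). It fell by 0.73 log2 with curcumin (edgeR adjusted p = 2.46e-08) and by 1.25 log2 with the combination (edgeR adjusted p = 1.01e-12).

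The insulin receptor gene daf-2 fell by 0.25 log2 with curcumin (edgeR adjusted p = 0.0107, but 0.0752 without control replicate 2, and 0.0531 and 0.0514 in limma on FPKM) and by 0.35 log2 with the combination (edgeR adjusted p = 3.72e-04). The gene of the forkhead factor DAF-16 itself fell by 0.19 log2 with the combination (edgeR adjusted p = 0.0361), a call lost without any one of control replicates 2 and 3 and combination replicates 1, 2 and 4 (0.0516 to 0.128) and in 4 of the other settings (0.0503 to 0.0660). The kinase gene pdk-1 rose by 0.64 log2 with sulforaphane (edgeR adjusted p = 2.27e-04) and by 0.48 log2 with the combination (edgeR adjusted p = 0.00151). RNA levels of a pathway's genes do not measure its activity.

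In the p38 and ERK lists at most 2 genes passed in any comparison with the control. Of 6 genes of the p38 pathway, 1 fell with curcumin, 0 passed with sulforaphane, and 1 rose and 1 fell with the combination. The gene that fell was vhp-1, a phosphatase that restrains stress kinases, by 0.33 log2 with curcumin (edgeR adjusted p = 4.12e-04), and the gene that rose was the kinase sek-1, by 0.31 log2 with the combination (edgeR adjusted p = 0.0156). The sek-1 call was lost without any one of control replicates 1 and 4 and combination replicates 1 and 3 (edgeR adjusted p 0.0513 to 0.0646). With the combination vhp-1 fell by 0.17 log2 (edgeR adjusted p = 0.0443), a call lost without any one of 8 libraries (control replicates 1, 2 and 3, sulforaphane replicates 1 and 3, and combination replicates 2, 3 and 4; 0.0504 to 0.145) and in 5 of the other settings (0.0538 to 0.0984). Of 8 genes of the DBL-1 pathway, 0 rose in any comparison with the control, and 1, 2 and 3 fell with curcumin, sulforaphane and the combination. They were sma-9, a transcriptional cofactor, in all 3 comparisons (-0.28, -0.19 and -0.36 log2), sma-10, a receptor-binding membrane protein, with sulforaphane and the combination (-0.38 in both), and the Smad gene sma-4 with the combination (-0.40). The sulforaphane call of sma-9 (edgeR adjusted p = 0.0477) was lost in 14 of 16 fits that left out 1 library, all but those without curcumin replicate 3 or combination replicate 2 (0.0535 to 0.156), and with DESeq2 size factors (0.0809), without the filter on low counts (0.266) and in limma on FPKM (0.101 and 0.103). Of 5 ERK-pathway genes, the Raf gene lin-45 fell with curcumin (-0.23 log2) and the combination (-0.18), and the scaffold gene ksr-1 rose with sulforaphane (0.28). The combination call of lin-45 (edgeR adjusted p = 0.0308) was lost without any one of control replicates 1, 2 and 3 and combination replicates 3 and 4 (0.0528 to 0.0900), without the filter on low counts (0.109) and in a fit to only the groups compared (0.0604); its curcumin call (0.00871) was lost without that filter (0.0698). The ksr-1 call (edgeR adjusted p = 0.0201) was lost without control replicate 1 or 3 (0.0507 and 0.0519) and when libraries were scaled by their totals only (0.0648).

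Of 8 intestinal and stress transcription factors, 3 fell with curcumin, 1 rose with sulforaphane and 5 fell with the combination. The GATA factor gene elt-2, the main regulator of intestinal genes and also one of the 9 intestinal markers, fell by 0.43 log2 with the combination (edgeR adjusted p = 8.48e-04). The bZIP gene zip-2 fell by 0.35 log2 with curcumin (edgeR adjusted p = 3.33e-05) and by 0.22 with the combination (edgeR adjusted p = 0.00366). The GATA gene elt-7 fell by 0.45 and 0.37 log2 in the same comparisons (edgeR adjusted p = 7.64e-04 and 0.00313). skn-1, which governs detoxification genes, rose by 0.28 log2 with sulforaphane (edgeR adjusted p = 0.00608) and fell by 0.19 with curcumin (edgeR adjusted p = 0.0488). That fall of skn-1 was lost in 13 of 16 fits that left out 1 library, all but those without control replicate 1, curcumin replicate 3 or sulforaphane replicate 1 (0.0501 to 0.171), and in 5 of the other settings (0.0549 to 0.178). The beta-catenin gene bar-1 fell by 0.27 with the combination (edgeR adjusted p = 0.00354).

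The genes whose log2 CPM followed a member most closely over the 16 libraries were sought among the 9215 genes with a mean of at least 5 CPM, for the 3 members with the widest range. For ilys-3 these were cht-1, which encodes a chitinase, with a Pearson r of 0.969, its neighbour ilys-2 with r = 0.95, and cyp-14A3, a cytochrome P450 gene, with r = 0.944. cht-1 stood at 18.9 CPM in control worms, 46.3 with curcumin, 4.04 with sulforaphane and 6.51 with both compounds (means of 4 libraries), and cyp-14A3 at 41.9, 205, 2.66 and 5.86 CPM. For ilys-2 the list was cht-1 (r = 0.971), cyp-14A3 (r = 0.959) and ilys-3 (r = 0.95). For lys-4 it was asp-12, an aspartyl protease gene, with r = 0.981, F41H10.1 with r = 0.968 and pals-37 with r = 0.964. These libraries fall into 4 treatment groups, so that r describes mostly the pattern of group means.

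Within groups lys-7, lys-1, lys-2 and lys-8 tended to vary together by replicate number. Replicate 2 was the highest library in all 4 groups for lys-7 and lys-1, and in 3 of 4 groups for lys-2 and lys-8. Replicate 4 was the lowest in all 4 groups for lys-2, in 3 of 4 for lys-8, and in 2 of 4 for lys-7, lys-1 and ilys-5. For ilys-5 replicate 2 was the highest in 1 of 4 groups, and for lys-4 and ilys-2 in 0 groups. The labels do not say whether libraries of one number were handled together.

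Among the 6 further genes with a lys or ilys name, lys-10 (184622, chromosome IV, 8332826 to 8333518, plus strand) had the largest changes. It stood at 4.17, 5.13, 6.12 and 5.80 CPM in the control, 0.405, 0.746, 0.634 and 0.402 with curcumin, 6.29, 7.79, 7.84 and 8.24 with sulforaphane, and 0.374, 0.411, 0.948 and 0.0605 with both compounds. The curcumin and combination libraries, with 7 to 11 and 1 to 14 reads each, lay far below all others. lys-10 fell by 3.29 log2 with curcumin (SE 0.31, edgeR adjusted p = 1.46e-08) and by 3.57 log2 with the combination (SE 0.33, edgeR adjusted p = 5.04e-09), and its log2 change with sulforaphane was 0.51 (SE 0.23, edgeR adjusted p = 0.230) although its libraries did not overlap with the control.

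ilys-4 lies wholly within atic-1 on the opposite strand, where 54259 counts were assigned to atic-1 in all and 2908 to ilys-4. Whether the counting used strand is not given in the sources used here, so its values are uncertain. They were 13.9 ± 1.49 CPM in control worms, 8.31 ± 1.33 with curcumin, 13.6 ± 0.610 with sulforaphane and 10.4 ± 2.0 with both compounds (SD, n = 4 each). Its log2 change was -0.73 with curcumin (edgeR adjusted p = 2.55e-04) and -0.42 with the combination (edgeR adjusted p = 0.0230), the latter lost without any one of control replicates 1 and 2 and combination replicates 2 and 4 (edgeR adjusted p 0.0675 to 0.104). lys-6, next to lys-5, was tested and passed in no comparison, and ilys-6, lys-9 and ilys-1 had 35, 7 and 0 counts in all and were not tested.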

How the data were processed

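The 4 groups of 4 libraries were taken from the sample titles. The authors deposited raw read counts per gene and FPKM values. HISAT2 2.0.5, StringTie 1.3.3b, featureCounts 1.5.0-p3, DESeq2 1.20.0 and assembly WBcel235 are named in the submitters' processing notes, and the strandedness is not given in the sources used here. The deposited FPKM equalled count divided by gene length and by 1 depth per library, and served for levels between genes and for limma.

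Raw counts were analysed with edgeR 4.0.16 under R 4.3.3: filterByExpr (minimum count 10, minimum total 15), TMM scaling, 1 mean per group over 16 libraries, two-sided quasi-likelihood F tests for 7 contrasts and Benjamini-Hochberg adjustment over 14328 genes. The SE is the log2 change divided by the square root of F. Log2 CPM used a prior count of 2. The fit was tested on simulated data.

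The members, the marker and pathway lists and the tests were chosen with earlier results of these data known. Named genes were the 10 members, other genes with a lys or ilys name, up to 4 called genes of a pathway list and the 3 genes most correlated with each of the 3 members of widest range; intestinal and other tissue markers were named by list. Alternatives were other scalings and filters, DESeq2 1.42.0, fits to the groups compared, a replicate block, limma 3.58.1 on log2(FPKM + 1 or 0.1) and leaving out each library. Exons and coding lengths came from the Ensembl annotation of WBcel235. Intervals and floors cover counting error only.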

Additional observations from a re-analysis of the deposited data

Results flagged for a closer look

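The lys-5 level in sulforaphane replicate 4 was 0 CPM, far from the other 3 libraries of its group by Dixon's criterion. Each of those had 1 read, so the gap is that of a single read. This was 1 of 40 groups of 4 libraries examined, where chance gives about 5%.

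The effect of one compound on lys-7 and on lys-4 depended on the presence of the other, as tested by the interaction. It was -0.64 log2 for lys-7 (edgeR adjusted p = 2.32e-04) and 0.77 log2 for lys-4 (edgeR adjusted p = 0.00222). For lys-7, sulforaphane changed the level by -0.27 log2 on untreated lawns and by -0.91 log2 on curcumin lawns. For lys-4, sulforaphane changed it by -1.11 log2 on untreated lawns and by -0.34 log2 on curcumin lawns.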

How the results depend on the processing

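Over 24 settings and 63 combinations of gene and comparison, 1409 of 1503 values of the members kept their side of the threshold, 67 lost and 27 gained a call, and 0 reversed. A reversal was counted only for values that passed in the main analysis or in the other setting. Values that passed in neither may have changed sign. In every setting lys-4 (against the control and in the interaction), lys-7 with curcumin and the combination, and ilys-3 and ilys-2 with sulforaphane and the combination kept their calls. The rises of lys-2 and ilys-5 with sulforaphane also kept their calls in every setting. Of the members, 6 passed with curcumin in the main analysis, but 3 (FPKM with pseudocount 1; 14% of all genes) or 2 (pseudocount 0.1; 13.9%) with limma-trend, and 2 to 6 when 1 library was left out, the fewest without control replicate 1 (13.5% of all genes) or control replicate 3 (12.5%); 3 passed without curcumin replicate 2 (12.1%). The interaction passed in 2 members in the main analysis, 5 among all genes with at least 1 read (1.39% of all genes), 6 with the replicate block (2.22%; lys-2, lys-1, ilys-5 and lys-8 were added, with adjusted p of 2.38e-04, 0.00268, 0.00929 and 0.0486) and 1 with FPKM and a pseudocount of 1 (0.726%), where lys-7 had an adjusted p of 0.0512. Over all genes the interaction passed in 142, against 352, 318 and 104 in those settings and 224 by DESeq2, and sulforaphane in 961 against 1469 with the block. Libraries of different groups with the same replicate number deviated together (mean r 0.109, 0.00708 to 0.210 over 24 pairs, 12 of them over 0.1). Those with different numbers had a mean r of -0.0364 (-0.187 to 0.178 over 72 pairs, 2 of them over 0.1). Deviations were taken from group means, so a mean r above 0 for same numbers by itself brings that of different numbers below 0. The negative mean is therefore no separate evidence. Of the 16 libraries, 14 correlated best with their own number. The labels do not say that equal numbers were handled together, so the main analysis did not take the numbers as pairs. The pattern is a hint from the data and not from the design. The causes of these shifts were not tested. A fit to only the groups compared does not exist for the interaction. Depth limits lys-5 throughout and ilys-3 and lys-10 where they had fewest reads.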
